A study of Mus musculus with 18 samples.

Results

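The 10 genes followed here encode the machinery of MHC class I antigen presentation: 3 heavy chains (*H2-K1*, *H2-D1* and *H2-T23*), the light chain (*B2m*), the peptide transporter and its loading factor (*Tap1*, *Tap2* and *Tapbp*), 2 inducible proteasome subunits (*Psmb8* and *Psmb9*) and the transactivator *Nlrc5*. They were chosen by gene symbol from the 55385 genes listed, and all 10 were among the 14979 genes tested. Bone marrow-derived macrophages (BMDM) had been grown from female C57BL/6J mice of 12 weeks in DMEM with L929 supernatant, and 3 mice served as donors. The cells received vehicle (Veh, DMSO), 250 µM of the choline uptake blocker hemicholinium-3 (HC3) or 5 µM of the choline kinase inhibitor RSM-932a (RSM) for 24 h. They were then kept naïve (M[0]) or polarized (M[IL-4]) over a further 24 h by IL-4 at 20 ng/mL, which makes 6 groups of 3 libraries. The study asked what choline metabolism contributes to macrophage polarization.

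Class I molecules show the peptides of a cell's own proteins to CD8+ T cells. Proteins are cut by the proteasome, whose catalytic subunits can be exchanged for the inducible ones of the immunoproteasome, and the peptides are carried into the endoplasmic reticulum by the TAP transporter and fitted, with help of tapasin (the product of *Tapbp*), onto a heavy chain bound to β2-microglobulin. Interferons raise most of these genes together in macrophages, and NLRC5 drives class I promoters much as CIITA drives those of class II.

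Of the 10 genes, 8 lie on chromosome 17 (GRCm38) in the major histocompatibility complex. The first are *Tapbp* (chr17:33915899-33929292, plus strand) and *H2-K1* (chr17:33996017-34000347, minus strand). Next comes the run of *Psmb9* (chr17:34181987-34187764, minus), *Tap1* (chr17:34187553-34197225, plus), *Psmb8* (chr17:34197721-34201454, plus) and *Tap2* (chr17:34203527-34216321, plus), and further on lie *H2-D1* (chr17:35262730-35267499, plus) and *H2-T23* (chr17:36029773-36032855, minus). *B2m* lies at chr2:122147686-122153083 and *Nlrc5* at chr8:94434356-94527272, both on the plus strand. *Psmb9* and *Tap1* point away from each other, and their annotated ends overlap by 212 bp. No strand setting is given in the sources used here, so counts on exon shared with a gene on the other strand may belong to either gene. This concerns 24.9% of the exon bases of *Tapbp* (with *Gm19412*), 18.5% of *Tap2*, 14.7% of *Psmb8*, 5.79% of *Psmb9* and 3.87% of *Tap1*. On the same strand, 4.11% of the exon bases of *Tapbp* are shared with *Zbtb22*.

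Promoter windows of 300 bases, from RefSeq on GRCm38.p6, were matched for 8 of the 10 genes, *Tap2* and *Nlrc5* being the ones without. The motifs looked for on both strands were the interferon-stimulated response element (ISRE, GAAANNGAAA), the interferon-γ-activated site (GAS, TTCNNNGAA), the NF-κB site (GGGANNNNCC) and the CCAAT box. The windows of the heavy chains and of *B2m* are shown because each heavy chain pairs with the product of *B2m* at the cell surface. In M[0], *H2-K1*, *H2-D1* and *B2m* had log2 fold changes above 0 with both inhibitors, and those of *H2-T23* were below 0. In M[IL-4] the values of *H2-K1*, *H2-D1* and *B2m* were again above 0. Those of *H2-T23* were 0.05 with HC3 and 0.02 with RSM there. Not all of these differences passed the test used below. In *H2-K1* (chr17:34000298-34000597, minus strand) and *H2-D1* (chr17:35262844-35263143, plus strand) the capitals mark a pair of overlapping NF-κB matches, in *H2-T23* (chr17:36032652-36032951, minus strand) an ISRE match, and in *B2m* (chr2:122147437-122147736, plus strand) an ISRE match followed by overlapping NF-κB matches.
H2-K1: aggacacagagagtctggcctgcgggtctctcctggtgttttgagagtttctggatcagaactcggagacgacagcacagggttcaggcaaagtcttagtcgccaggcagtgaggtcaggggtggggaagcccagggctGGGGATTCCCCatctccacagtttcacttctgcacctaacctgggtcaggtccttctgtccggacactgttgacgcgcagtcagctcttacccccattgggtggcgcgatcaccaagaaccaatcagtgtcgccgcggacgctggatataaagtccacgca
H2-D1: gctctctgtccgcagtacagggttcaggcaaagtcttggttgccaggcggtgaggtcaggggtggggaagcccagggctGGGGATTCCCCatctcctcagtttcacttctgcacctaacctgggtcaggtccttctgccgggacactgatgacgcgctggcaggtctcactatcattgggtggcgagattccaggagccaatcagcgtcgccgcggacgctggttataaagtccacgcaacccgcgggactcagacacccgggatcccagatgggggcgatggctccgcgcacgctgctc
H2-T23: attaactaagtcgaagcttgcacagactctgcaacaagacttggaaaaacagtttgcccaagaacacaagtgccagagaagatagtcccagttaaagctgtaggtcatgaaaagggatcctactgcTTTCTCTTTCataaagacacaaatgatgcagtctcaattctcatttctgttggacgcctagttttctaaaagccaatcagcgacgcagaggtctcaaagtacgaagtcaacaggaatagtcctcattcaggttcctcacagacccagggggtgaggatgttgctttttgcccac
B2m: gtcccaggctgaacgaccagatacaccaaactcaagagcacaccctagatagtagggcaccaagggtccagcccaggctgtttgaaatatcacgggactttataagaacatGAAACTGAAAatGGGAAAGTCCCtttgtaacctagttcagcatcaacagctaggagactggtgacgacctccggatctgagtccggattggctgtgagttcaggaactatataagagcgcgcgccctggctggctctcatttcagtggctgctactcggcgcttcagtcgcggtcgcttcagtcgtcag
The capitals of *H2-K1* and *H2-D1* spell the same letters, and neither window held an ISRE match. An ISRE match was found in 2 of the 8 genes, against 3.44% of the 32851 windows of all genes, and an NF-κB match in 3 of 8, against 20.7%. A GAS match was found in 1 of 8, *Psmb8* (8.30% of all windows), and a CCAAT box in 7 of 8, all but *Psmb8* (37.4%). A match is a description of the letters and not a binding site, and no match says only that these letters are not in this window.

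*Tap1* and *Psmb9* share a window, since their RefSeq starts have 225 bases between them and lie on opposite strands. It is shown on the strand of *Tap1* (chr17:34187306-34187605) because these neighbours did not keep their ratio across the groups, and the capitals mark the bases between the starts.
Tap1 and Psmb9: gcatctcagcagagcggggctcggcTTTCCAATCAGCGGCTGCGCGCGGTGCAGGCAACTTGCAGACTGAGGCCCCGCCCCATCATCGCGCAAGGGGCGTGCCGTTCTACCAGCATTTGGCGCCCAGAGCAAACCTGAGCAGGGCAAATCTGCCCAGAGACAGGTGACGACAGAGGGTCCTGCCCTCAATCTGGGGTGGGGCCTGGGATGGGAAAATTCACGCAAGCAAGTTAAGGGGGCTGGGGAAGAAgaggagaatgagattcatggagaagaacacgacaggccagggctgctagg

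Counts per library came to 17457796 to 19522255, and the 10 genes took 0.464% to 0.851% of them. Levels are given as CPM, the usual counts scaled to a common library total with edgeR's TMM factors, in the order of replicates 1, 2 and 3, or per kb of exon where genes are compared with each other. In Veh M[0], per kb of exon, *B2m* was highest (1553 ± 193 CPM per kb, mean ± SD, n = 3), followed by *H2-D1* (911 ± 122), *H2-K1* (256 ± 26.6), *Tapbp* (78.7 ± 4.46) and *H2-T23* (53.6 ± 7.00). The processing genes were lower, at 13.6 ± 3.10 CPM per kb for *Psmb8*, 9.66 ± 1.26 for *Tap2*, 9.03 ± 0.813 for *Tap1* and 6.29 ± 1.63 for *Psmb9*, and *Nlrc5* was the lowest at 3.75 ± 0.414. The neighbours *Tap2* and *Tap1* in this order differed by less than their spread. Within Veh M[0], replicate 1 gave the lowest value for 9 of the 10 genes, the exception being *B2m*.

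**Figure D1:**
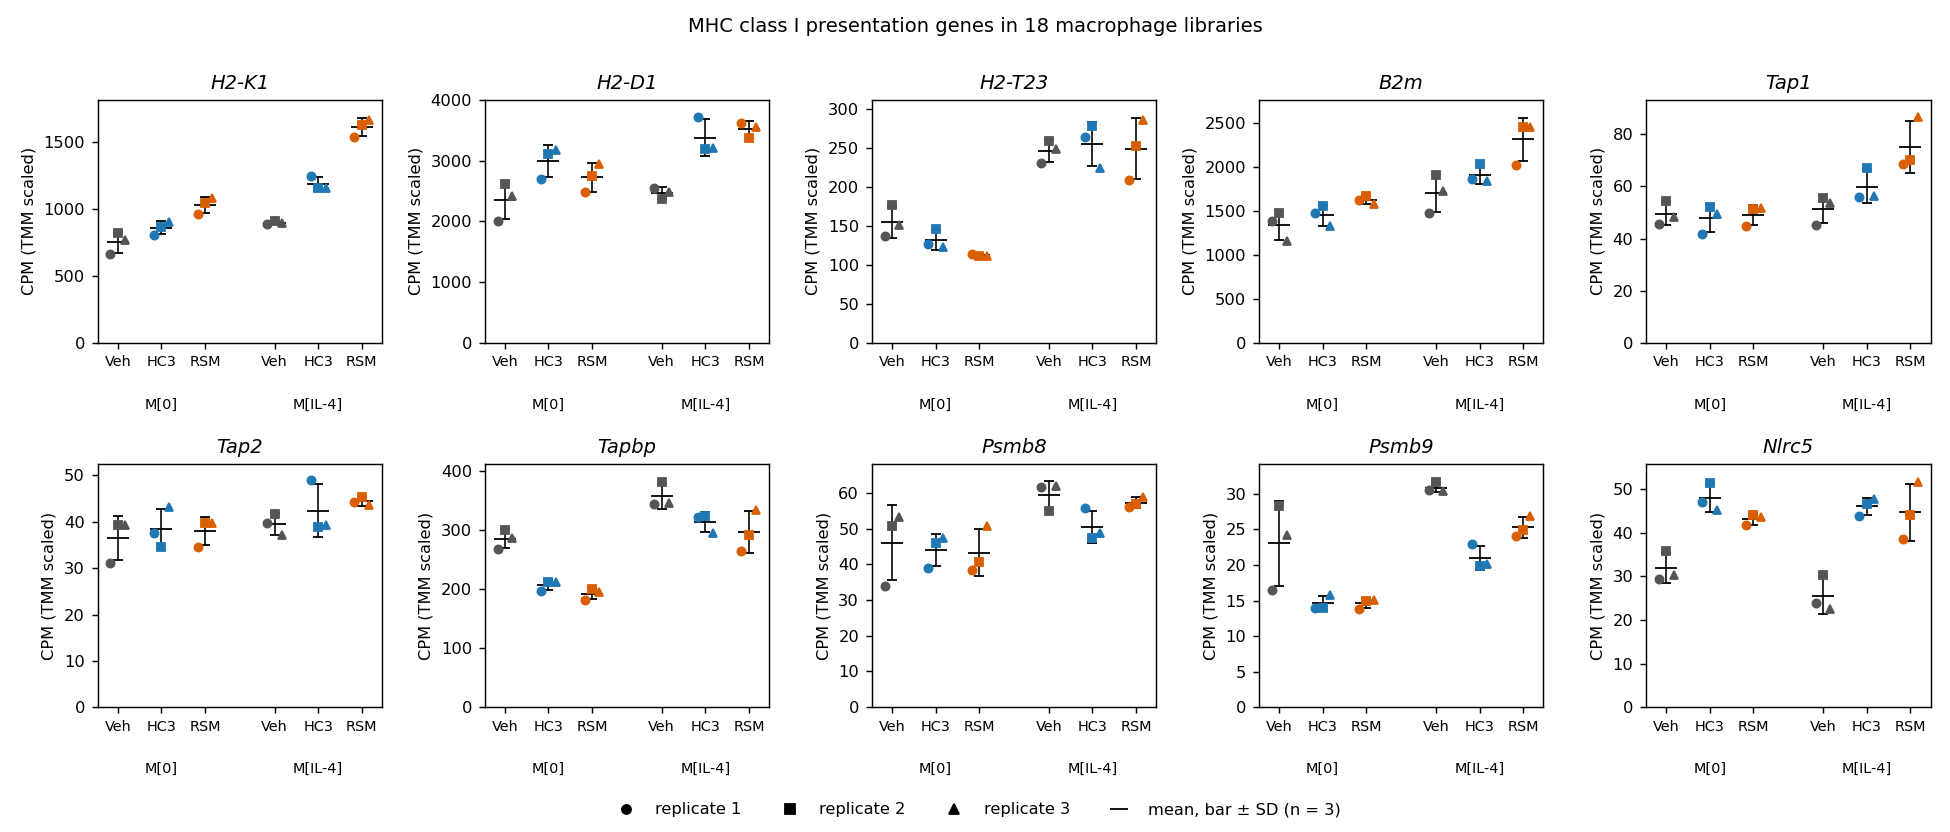
Expression of the 10 genes in the 18 libraries, in CPM scaled by TMM on linear axes from 0. Each point is a library (its shape gives the replicate number), and the dash and bar are the mean ± SD of 3 libraries. *Nlrc5* lay between 38.5 and 51.5 CPM in all 12 inhibitor libraries and between 22.6 and 35.9 CPM in all 6 vehicle libraries.

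All 8 macrophage markers examined were detected, and their summed level moved with the groups. It was 20263 to 21350 CPM in Veh M[0], 8700 to 9793 in HC3 M[0] and 15738 to 17184 in RSM M[0], and 11793 to 12139, 7464 to 8651 and 10594 to 12975 CPM in M[IL-4] with Veh, HC3 and RSM. The 6 stromal markers, all detected, summed to 526 to 888, 1232 to 1697 and 1035 to 1485 CPM in the same M[0] groups and to 285 to 665, 563 to 1060 and 540 to 1076 CPM in the M[IL-4] groups. Markers of T and NK cells, of neutrophils and of dendritic cells each summed to at most 2.90 CPM in any library, with *Cd3d*, *Cd3g*, *S100a9*, *Elane* and *Retnlg* at 0 in all 18. The share of counts on mitochondrial genes moved with the inhibitors too. In M[0] it was 1.68% to 2.03% with Veh, 2.51% to 3.45% with HC3 and 0.709% to 0.814% with RSM, and in M[IL-4] 1.78% to 2.21%, 2.50% to 3.31% and 0.665% to 0.829%, without overlap between treatments at either polarization. The macrophage sum rested most on *Lyz2*, which spanned 2480 to 12577 CPM over the 18 libraries. Other markers spanned wide ranges too, with *Csf1r* at 1503 to 4004, *Adgre1* at 1101 to 3080 and *Cd14* at 63.5 to 628 CPM. *Itgam* spanned 56.6 to 260, *Fcgr1* 43.9 to 199 and *Mertk* 27.2 to 132 CPM, while *Cd68* was steadier at 873 to 1487 CPM. The stromal sum rested most on *Col1a1* (102 to 728 CPM) and *Col1a2* (146 to 758 CPM). The other stromal markers spanned 14.4 to 130 CPM (*Col3a1*), 1.51 to 10.4 (*Dcn*), 8.88 to 28.3 (*Pdgfra*) and 6.50 to 63.7 CPM (*Pdgfrb*). The paper reports extracellular matrix genes as up-regulated by choline inhibition. Whether these sums moved with the regulation of single genes or with cell content was not tested. The part of the macrophage, stromal and mitochondrial shifts in the values below was not tested. In bulk RNA fewer cells of a type and less RNA per cell cannot be told apart.

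Against vehicle, part of the 10 genes passed as higher and part as lower in each comparison. Apart from the higher genes with RSM in M[IL-4], these counts were near the shares of all genes. The mitochondrial share was at the same time higher with HC3 and lower with RSM. In M[0] with HC3, 3 of the 10 passed the test as higher (*H2-K1*, *H2-D1* and *Nlrc5*) and 2 as lower (*Tapbp* and *Psmb9*), where 22.6% and 21.5% of all tested genes did. In M[0] with RSM, 3 were higher (*H2-K1*, *B2m* and *Nlrc5*) and 3 lower (*H2-T23*, *Tapbp* and *Psmb9*), against 20.5% and 20.7% of all genes. In M[IL-4] with HC3, 3 were higher (*H2-K1*, *H2-D1* and *Nlrc5*) and 1 lower (*Psmb9*), against 18.9% and 19.9%. In M[IL-4] with RSM, 5 were higher (*H2-K1*, *H2-D1*, *B2m*, *Tap1* and *Nlrc5*) and 1 lower (*Tapbp*), against 20.1% and 18.5%. The median log2 fold changes of the 10 genes were 0.01, 0.02, 0.13 and 0.31 in these 4 comparisons, where those of all tested genes were 0.02, 0.01, 0.01 and 0.02.

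Passing means an FDR under 0.05 in edgeR's quasi-likelihood test with Benjamini-Hochberg adjustment over the 14979 genes. A fit with the replicate number as a block within each polarization is called blocked, and its value is given where it changed a call. That fit called more of all genes as well, with 28.0% higher and 25.5% lower for HC3 in M[0], 25.7% and 25.2% for RSM in M[0], 24.6% and 24.4% for HC3 in M[IL-4], and 26.3% and 23.0% for RSM in M[IL-4]. Leaving out replicate 3 called fewer, with 13.9% and 15.1%, 12.5% and 13.9%, 10.5% and 13.1%, and 11.8% and 12.4% in the same order. The comparisons within a polarization share their vehicle libraries. An exact permutation test on a single gene, with 3 values on each side, has 0.1 as its smallest two-sided p.

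**Figure D2:**
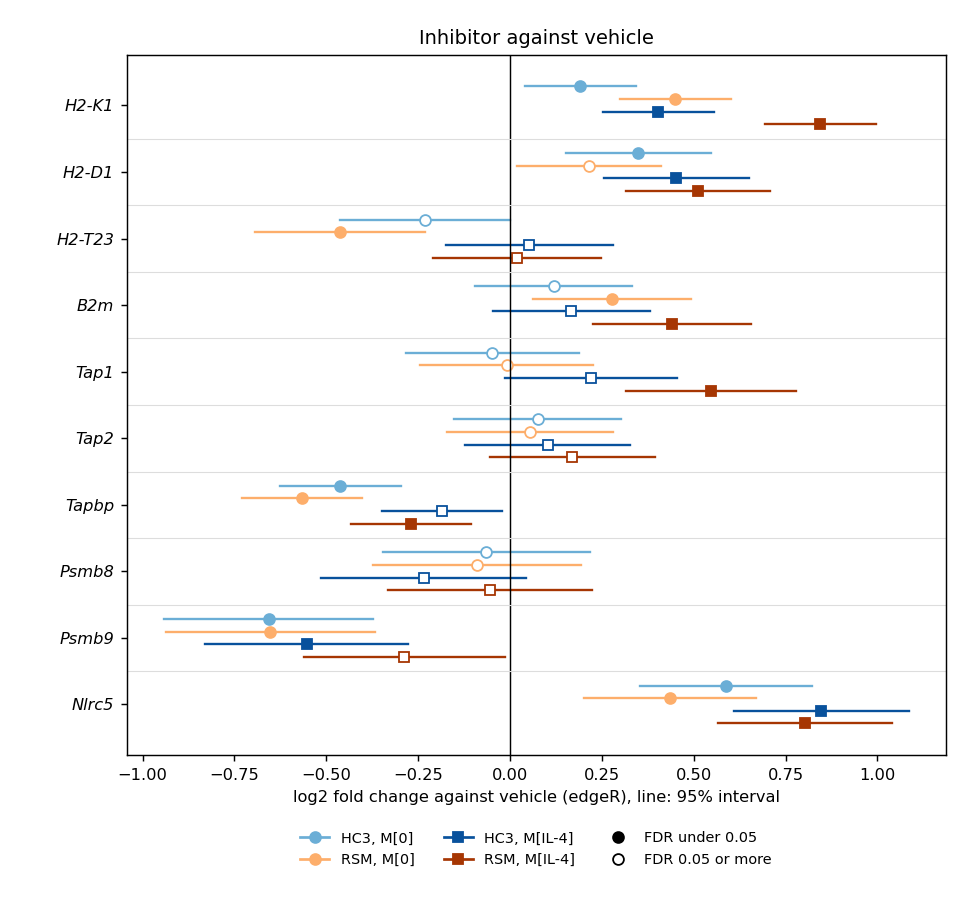
Log2 fold change of the 10 genes against vehicle in the 4 inhibitor comparisons, with the 95% interval from edgeR as a line and filled symbols for an FDR under 0.05. *H2-K1*, *H2-D1* and *Nlrc5* lie to the right of 0 and *Tapbp* and *Psmb9* to the left in all 4 comparisons.

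Of the heavy chains, *H2-K1*, a classical molecule that presents to CD8+ T cells, rose in all 4 comparisons. It stood at 667, 820.1 and 771 CPM in the Veh M[0] libraries, at 808, 867 and 903 CPM with HC3 and at 962, 1042 and 1081 CPM with RSM. In M[IL-4] it was at 887, 910.1 and 896 CPM with Veh, 1250, 1157 and 1154 CPM with HC3 and 1538, 1631 and 1668 CPM with RSM. Within a polarization the groups separated without overlap except HC3 and Veh in M[0]. The log2 fold changes in M[0] were 0.19 ± 0.07 (SE, edgeR FDR 0.0378) for HC3 and 0.45 ± 0.07 (edgeR FDR 5e-05) for RSM. In M[IL-4] they were 0.40 ± 0.07 (edgeR FDR 0.000176) and 0.85 ± 0.07 (edgeR FDR 2.26e-08), the last being 1.80-fold. Ordered by their means the groups ran from RSM M[IL-4] through HC3 M[IL-4], RSM M[0], Veh M[IL-4] and HC3 M[0] to Veh M[0], and of these neighbours only the last 3 overlapped. The HC3 call in M[0] was lost without replicate 1 (0.13, edgeR FDR 0.0895) and without replicate 3 (0.17, edgeR FDR 0.267), and it missed the threshold with only the groups compared (edgeR FDR 0.107), with no count filter (edgeR FDR 0.051) and with DESeq2's size factors (edgeR FDR 0.0534).

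*H2-D1*, the other classical chain, was the most abundant heavy chain per kb in every library. It read 2005, 2619 and 2426 CPM in Veh M[0], 2694, 3112 and 3173 CPM with HC3 and 2483, 2751 and 2948 CPM with RSM. With IL-4 the values were 2553, 2369 and 2484 CPM with Veh, 3729, 3194 and 3215 CPM with HC3 and 3631, 3370 and 3556 CPM with RSM. Every HC3 library was above every Veh library at the same polarization, as was every RSM library in M[IL-4], while in M[0] the RSM libraries overlapped those of Veh. On the log2 scale HC3 raised it by 0.35 ± 0.09 (edgeR FDR 0.00532) in M[0] and by 0.45 ± 0.09 (edgeR FDR 0.00075) in M[IL-4], and RSM by 0.51 ± 0.09 (edgeR FDR 0.000227) in M[IL-4]. The difference for RSM in M[0] was 0.22 ± 0.09 and missed the threshold (edgeR FDR 0.0752), but passed in the blocked fit (edgeR FDR 0.000223). The HC3 call in M[0] was lost without replicate 3 (0.33, edgeR FDR 0.101). Of the stretches of 100 bases in its transcripts, 3.59% also occur in other genes, against 0.957% for *H2-K1*.

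*H2-T23* encodes Qa-1, a non-classical chain known as a ligand of the NKG2A receptor, and did not pass as higher with either inhibitor. In M[0] it was at 137, 177 and 151 CPM with Veh, 127, 146 and 123 CPM with HC3 and 114, 111 and 111 CPM with RSM, so that every RSM library was below every Veh library. RSM changed it by -0.46 ± 0.11 on the log2 scale (edgeR FDR 0.00229). The difference for HC3 was -0.23 ± 0.11 (edgeR FDR 0.098), which passed in the blocked fit (edgeR FDR 0.0223). In M[IL-4] the groups overlapped, at 231, 259 and 249 CPM with Veh, 264, 278 and 224 CPM with HC3 and 209, 253 and 287 CPM with RSM. The log2 differences from Veh had 95% intervals of -0.17 to 0.28 for HC3 and -0.21 to 0.25 for RSM.

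*B2m*, the light chain shared by these molecules, rose with RSM. It was at 1382, 1474 and 1151 CPM in Veh M[0], 1474, 1555 and 1321 CPM with HC3 and 1624, 1662 and 1573 CPM with RSM. The M[IL-4] values were 1472, 1910 and 1720 CPM with Veh, 1862, 2035 and 1831 CPM with HC3 and 2024, 2454 and 2450 CPM with RSM. Every RSM library exceeded every Veh library of its polarization, while HC3 and Veh overlapped. RSM raised it by 0.28 ± 0.10 (edgeR FDR 0.0358) in M[0] and by 0.44 ± 0.10 (edgeR FDR 0.00193) in M[IL-4]. The M[0] call was lost without replicate 1 (0.29, edgeR FDR 0.0697) and without replicate 3 (0.20, edgeR FDR 0.294). For HC3 the differences were 0.12 ± 0.10 and 0.17 ± 0.10 (edgeR FDR 0.371 and 0.214), of which the M[IL-4] value passed in the blocked fit (edgeR FDR 0.00766).

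In the transport and loading step, *Tapbp*, the gene of tapasin, fell with both inhibitors in M[0]. It went from 268, 301 and 288 CPM with Veh to 198, 213 and 212 CPM with HC3 and 182, 201 and 196 CPM with RSM. That is a log2 fold change of -0.46 ± 0.08 for HC3 (edgeR FDR 8.83e-05) and -0.57 ± 0.08 for RSM (edgeR FDR 9.66e-06), with no overlap with Veh. In M[IL-4] it was at 344, 383 and 346 CPM with Veh, 323, 325 and 295 CPM with HC3 and 264, 292 and 335 CPM with RSM. Here every inhibitor library was again below every Veh library, with -0.19 ± 0.08 for HC3 (edgeR FDR 0.0661, and 0.0113 in the blocked fit) and -0.27 ± 0.08 for RSM (edgeR FDR 0.00975). The RSM call in M[IL-4] was lost without replicate 1 (-0.21, edgeR FDR 0.0567) and without replicate 2 (-0.22, edgeR FDR 0.0999).

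*Tap1*, which encodes a subunit of the transporter, was at 45.7, 54.4 and 48.3 CPM in Veh M[0], 41.9, 52.1 and 49.4 CPM with HC3 and 44.7, 51.1 and 51.6 CPM with RSM. These groups overlapped, with 95% intervals of the log2 difference from Veh of -0.28 to 0.19 for HC3 and -0.24 to 0.23 for RSM. In M[IL-4] it stood at 45.2, 55.5 and 53.5 CPM with Veh, 55.9, 67.1 and 56.4 CPM with HC3 and 68.5, 70.1 and 86.5 CPM with RSM, and both inhibitor groups lay above Veh without overlap. RSM raised it there by 0.55 ± 0.11 (edgeR FDR 0.000584). The HC3 difference of 0.22 ± 0.11 missed the threshold (edgeR FDR 0.131) and passed in the blocked fit (edgeR FDR 0.0148). *Tap2*, the partner subunit, ranged from 31.0 to 49.0 CPM over all 18 libraries and passed in none of the 11 comparisons in edgeR. Its largest log2 difference from Veh was 0.17 ± 0.11 (RSM in M[IL-4], edgeR FDR 0.23).

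The inducible proteasome subunits also differed from each other. *Psmb9*, which takes the place of *Psmb6* in the immunoproteasome, went in M[0] from 16.5, 28.3 and 24.3 CPM with Veh to 14.0, 14.0 and 15.8 CPM with HC3 and 13.9, 15.0 and 15.1 CPM with RSM. All 6 inhibitor libraries were below the 3 Veh libraries, with log2 fold changes of -0.66 ± 0.14 for HC3 (edgeR FDR 0.000633) and -0.65 ± 0.14 for RSM (edgeR FDR 0.000721). In M[IL-4] the values were 30.5, 31.6 and 30.5 CPM with Veh, 23.0, 19.9 and 20.2 CPM with HC3 and 24.1, 24.9 and 26.9 CPM with RSM, again with no overlap with Veh. The HC3 difference was -0.55 ± 0.13 (edgeR FDR 0.00243, and 0.07 without replicate 3), and the RSM difference of -0.29 ± 0.13 missed the threshold (edgeR FDR 0.0914) and passed in the blocked fit (edgeR FDR 0.019). *Psmb8*, which takes the place of *Psmb5*, lay between 34.1 and 53.4 CPM in M[0] and between 47.3 and 61.8 CPM in M[IL-4]. It did not pass against Veh, with log2 differences of -0.23 to -0.06 in the 4 comparisons, although that for HC3 in M[IL-4] did so in the blocked fit (-0.24, edgeR FDR 0.0106).

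*Nlrc5*, the transactivator, rose in all 4 comparisons. In M[0] it was at 29.4, 35.9 and 30.3 CPM with Veh, 47.0, 51.4 and 45.1 CPM with HC3 and 41.7, 43.9 and 43.7 CPM with RSM. In M[IL-4] it was at 23.9, 30.3 and 22.6 CPM with Veh, 43.9, 46.5 and 47.7 CPM with HC3 and 38.5, 44.0 and 51.5 CPM with RSM. No inhibitor library overlapped a vehicle library of either polarization, while neighbouring inhibitor groups overlapped in the order HC3 M[0], HC3 M[IL-4], RSM M[IL-4] and RSM M[0]. The log2 fold changes for HC3 and RSM were 0.59 ± 0.11 (edgeR FDR 0.000281) and 0.44 ± 0.11 (edgeR FDR 0.00397) in M[0], and 0.85 ± 0.11 (edgeR FDR 7.29e-06) and 0.80 ± 0.11 (edgeR FDR 1.27e-05) in M[IL-4]. The RSM value in M[0] missed the threshold without replicate 3 (0.39, edgeR FDR 0.0524).

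With IL-4, all but 1 of the calls were towards a higher level. With Veh, 6 of the 10 genes passed as higher in M[IL-4] than in M[0] (*H2-K1*, *H2-T23*, *B2m*, *Tapbp*, *Psmb8* and *Psmb9*) and 1 as lower (*Nlrc5*), where 16.1% and 14.9% of all tested genes did. With HC3, 5 were higher (*H2-K1*, *H2-T23*, *B2m*, *Tapbp* and *Psmb9*) and 0 lower, against 7.22% and 7.48%. With RSM, 8 were higher, all but *Tap2* and *Nlrc5*, and 0 lower, against 8.79% and 6.74%. Of the lower direction, 0 genes had an unadjusted p under 0.05 in edgeR with HC3 or RSM, and 0 passed in DESeq2. The median log2 fold changes were 0.29, 0.36 and 0.56 with Veh, HC3 and RSM, against -0.01, -0.01 and 0.0014 for all genes.

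The gene with the largest fold change by IL-4 among the 10 was *H2-T23* with each treatment. It rose by 0.67 ± 0.11 (edgeR FDR 0.000112) with Veh, by 0.95 ± 0.11 (edgeR FDR 5.21e-06) with HC3 and by 1.15 ± 0.11 (edgeR FDR 3.31e-07) with RSM, and its M[IL-4] libraries were above its M[0] libraries each time. On the log2 scale *Tapbp* rose by 0.32 ± 0.08, 0.60 ± 0.08 and 0.62 ± 0.08, and *Psmb9* by 0.42 ± 0.13, 0.53 ± 0.14 and 0.79 ± 0.13. *Nlrc5* was lower with Veh (-0.32 ± 0.11, edgeR FDR 0.0429), with overlapping groups, and its log2 differences with HC3 and RSM were -0.06 ± 0.11 and 0.05 ± 0.11. The Veh calls depended on single replicate numbers: without replicate 1, 3 genes were higher and 0 lower, where 13.3% and 12.4% of all genes passed, and without replicate 3, 2 were higher and 0 lower, where 8.56% and 7.23% did. Without replicate 1 the log2 value was 0.16, edgeR FDR 0.0563, for *H2-K1* (0.25 ± 0.07 with all libraries), 0.15, edgeR FDR 0.307, for *Psmb8* (0.37 ± 0.13) and 0.22, edgeR FDR 0.14, for *Psmb9*, each moved by over 1.5 times. With only the groups compared, *Psmb8* (edgeR FDR 0.087), *Psmb9* (edgeR FDR 0.0757) and *Nlrc5* (edgeR FDR 0.0855) missed the threshold with Veh, and with library-size scaling *Psmb8* did so with Veh (edgeR FDR 0.0875) and with RSM (edgeR FDR 0.104). With HC3 and RSM, 3 and 4 genes were higher without replicate 3, where 3.19% and 4.37% of all genes passed as higher. With the replicate number as a block over all libraries, *Tap1* passed with HC3 too (edgeR FDR 0.00455).

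**Figure D3:**
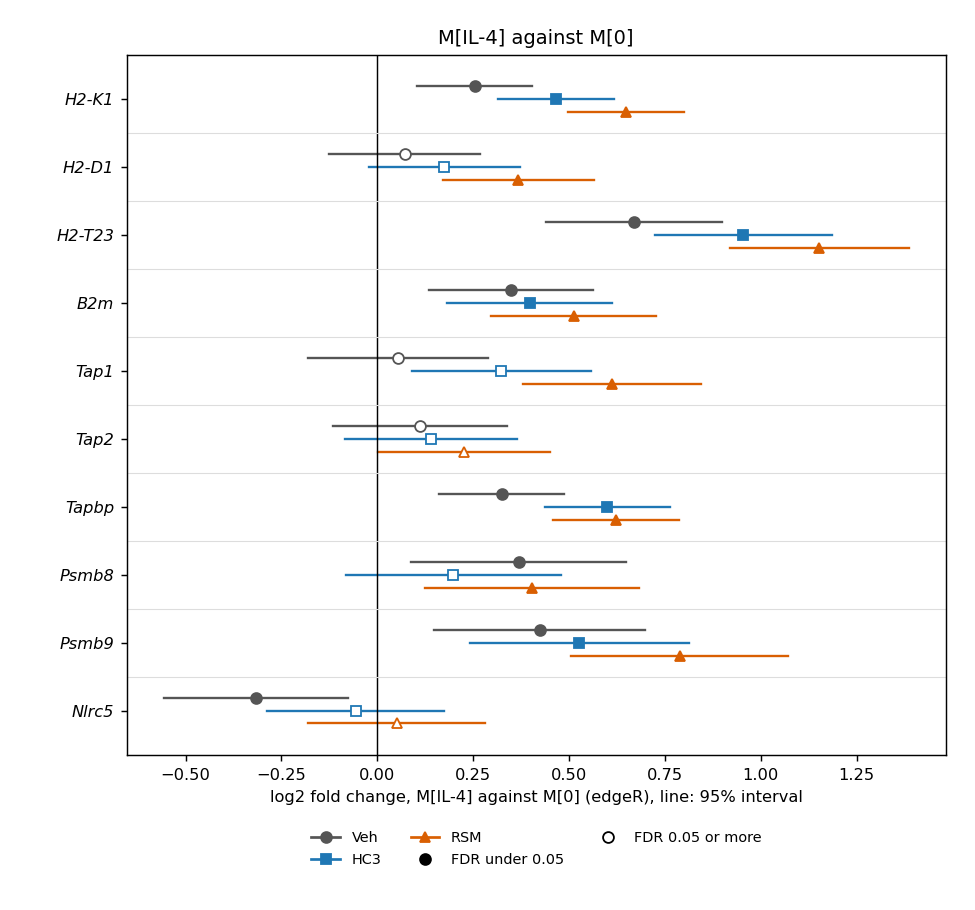
Log2 fold change of the 10 genes in M[IL-4] against M[0] with Veh, HC3 and RSM, with the 95% interval from edgeR as a line and filled symbols for an FDR under 0.05. *H2-T23* lies farthest to the right with each treatment, and *Nlrc5* with Veh is the filled symbol left of 0.

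Whether the inhibitor effect differed between the polarizations was tested as a difference of differences. For RSM, 2 genes passed, both with a higher value in M[IL-4]: *H2-K1*, by 0.39 ± 0.10 (edgeR FDR 0.0177), and *Tap1*, by 0.56 ± 0.16 (edgeR FDR 0.0314), against 5.05% of all genes higher and 4.14% lower. The other 8 estimates for RSM were above 0 too, none past the threshold in edgeR. In DESeq2 3 genes passed, with *H2-T23* as the added one (0.47, DESeq2 FDR 0.0442, against 0.48 ± 0.15, edgeR FDR 0.0593). Of all genes, 5.36% passed there as higher and 5.45% as lower. *H2-T23* passed in 6 of the 11 alternatives. For HC3, 0 genes passed in edgeR and 0 in DESeq2, 1 had an unadjusted p under 0.05 (*Tapbp*, 0.0218), and 3.08% and 3.4% of all genes passed as higher and lower. In the blocked fit 6 genes passed for RSM, with *H2-D1*, *H2-T23*, *Tapbp* and *Nlrc5* as the added ones, and 2 for HC3 (*H2-K1* at 0.21, edgeR FDR 0.0272, and *Tapbp* at 0.28, edgeR FDR 0.0225). Over all genes that fit called 10.5% higher and 8.94% lower for RSM, and 8.38% and 8.93% for HC3. Without replicate 3 neither RSM call was kept, at values of 0.39, edgeR FDR 0.283, for *H2-K1* and 0.53, edgeR FDR 0.288, for *Tap1*, where 1.07% and 0.756% of all genes passed. That of *H2-K1* was also lost without replicate 2 (0.34, edgeR FDR 0.144) and that of *Tap1* without replicate 1 (0.53, edgeR FDR 0.0706).

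HC3 and RSM were also compared directly, although they differ in dose and in the protein they inhibit. On the log2 scale *H2-K1* differed, HC3 against RSM, by -0.26 ± 0.07 in M[0] (edgeR FDR 0.0203) and by -0.44 ± 0.07 in M[IL-4] (edgeR FDR 0.000288), lower with HC3 and with no overlap between libraries. It was the 1 gene of the 10 that passed as lower in each, where 7.43% and 8.03% of all genes did. As higher with HC3, 0 passed in edgeR or DESeq2, 1 (*H2-T23* in M[0]) and 0 had an unadjusted p under 0.05, and 6.18% and 4.97% of all genes passed. In M[IL-4] the blocked fit also put *B2m* (edgeR FDR 0.000378) and *Tap1* (edgeR FDR 0.00124) lower with HC3. In M[0] it put *B2m* lower (edgeR FDR 0.0222), and *H2-D1* (edgeR FDR 0.0297) and *H2-T23* (edgeR FDR 0.0466) higher. Of all genes it called 10.6% higher and 13.5% lower with HC3 in M[IL-4], and 13.7% and 12.9% in M[0]. The *H2-K1* difference in M[0] missed the threshold without replicate 2 (-0.26, edgeR FDR 0.078) and without replicate 3 (-0.26, edgeR FDR 0.252), and that in M[IL-4] without replicate 3 (-0.40, edgeR FDR 0.0688). For *Nlrc5* the 95% intervals of the difference were -0.08 to 0.38 in M[0] and -0.19 to 0.27 in M[IL-4].

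Ratios taken within a library do not depend on the scaling between libraries. *H2-K1* relative to *H2-D1*, both per kb, was 0.292, 0.275 and 0.279 in Veh M[0], 0.263, 0.245 and 0.250 with HC3 and 0.340, 0.332 and 0.322 with RSM, so that HC3 and RSM lay on either side of Veh without overlap. In M[IL-4] the ratio was 0.305, 0.337 and 0.317 with Veh, 0.294, 0.318 and 0.315 with HC3, which overlapped, and 0.372, 0.425 and 0.412 with RSM, which lay above both. *Tap1* relative to its neighbour *Psmb9* was 1.85, 1.28 and 1.33 in Veh M[0], 2.01, 2.49 and 2.09 with HC3 and 2.15, 2.29 and 2.28 with RSM. With IL-4 it was 0.989, 1.17 and 1.17 with Veh, 1.63, 2.25 and 1.87 with HC3 and 1.90, 1.88 and 2.15 with RSM. Every inhibitor library was above every Veh library of its polarization in this ratio, for the pair whose shared window is printed above.

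Each inducible subunit was also set against the standard subunit it replaces, per kb and as mean ± SD (n = 3). *Psmb8* relative to *Psmb5* was 0.227 ± 0.0258 in Veh M[0], 0.122 ± 0.00879 with HC3 and 0.130 ± 0.0141 with RSM, and *Psmb9* relative to *Psmb6* was 0.131 ± 0.0182, 0.0675 ± 0.00725 and 0.0703 ± 0.00119. *Psmb10* relative to *Psmb7* was 2.14 ± 0.172, 1.09 ± 0.0567 and 1.24 ± 0.0970. All 3 ratios were lower with either inhibitor in M[0], with no overlap with Veh. In M[IL-4] the *Psmb8* ratio was 0.238 ± 0.0326 with Veh, 0.143 ± 0.00840 with HC3 and 0.183 ± 0.0202 with RSM. In the same groups the *Psmb9* ratio was 0.123 ± 0.00884, 0.0810 ± 0.00460 and 0.111 ± 0.0116, and the *Psmb10* ratio 4.12 ± 0.287, 2.92 ± 0.387 and 2.76 ± 0.200. There only the *Psmb9* ratio with RSM overlapped Veh. *Psmb5* itself was higher by 0.84 ± 0.12 with HC3 and by 0.72 ± 0.12 with RSM in M[0] on the log2 scale (edgeR FDR 1.91e-05 and 0.00011), and 22.2% of its stretches of 100 bases also occur in other genes. In M[0], *Psmb6* rose by 0.32 with HC3 and 0.26 with RSM (edgeR FDR 0.00357 and 0.0146). *Psmb7* rose there by 0.33 with HC3 (edgeR FDR 0.000803), and its 0.16 with RSM did not pass. In M[IL-4], *Psmb5* rose by 0.48 with HC3 (edgeR FDR 0.00405), while *Psmb6* and *Psmb7* did not pass as higher. The ratios therefore moved with the standard subunits as well.

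**Figure D4:**
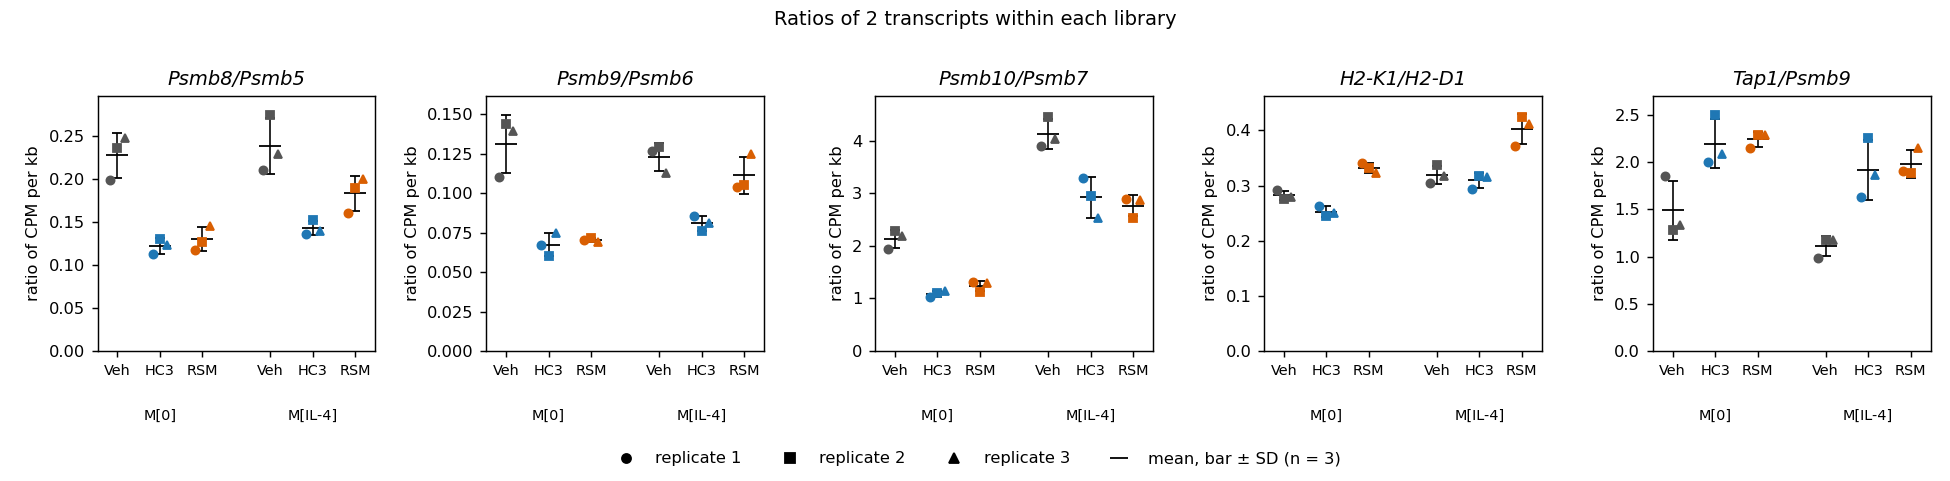
Ratios of 2 transcripts within each library, each in CPM per kb of exon, on linear axes from 0; points are libraries and the dash and bar are the mean ± SD of 3. The 3 ratios of inducible to standard proteasome subunits are lower with both inhibitors in M[0], and *Tap1* relative to *Psmb9* is higher with both inhibitors at either polarization.

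The lists of further pathway genes below were chosen with earlier results of these data known. Their counts therefore describe the listed genes and are no test against all genes. Of all tested genes, 22.6% were higher and 21.5% lower with HC3 in M[0], and 20.5% and 20.7% with RSM. In M[IL-4] the shares were 18.9% and 19.9% with HC3, and 20.1% and 18.5% with RSM. For M[IL-4] against M[0] they were 16.1% and 14.9% with Veh, 7.22% and 7.48% with HC3, and 8.79% and 6.74% with RSM. Of 9 further proteasome genes, 4 were higher and 3 lower with HC3 in M[0] and 4 and 3 with RSM. In M[IL-4], 2 were higher and 3 lower with HC3, and 1 and 4 with RSM. *Psmb10*, the remaining inducible subunit, fell in all 4 comparisons, with means of 55.0 ± 7.35 CPM in Veh M[0], 35.3 ± 1.22 with HC3 and 35.6 ± 2.70 with RSM. IL-4-treated cells went from 132 ± 7.97 CPM with Veh to 90.9 ± 13.1 and 77.7 ± 4.94 (log2 fold changes of -0.76 to -0.54 over the 4). Also lower in all 4 were *Pomp*, the proteasome assembly factor (-0.63 to -0.31), and *Psme1*, a subunit of the PA28 activator (-0.50 to -0.30). For M[IL-4] against M[0], the counts of the 9 were 8 higher and 0 lower with Veh, 5 and 0 with HC3, and 4 and 0 with RSM, with list medians of 0.40, 0.24 and 0.18 on the log2 scale. *Psmb10* rose by 1.26 ± 0.10 with Veh (edgeR FDR 1.76e-08).

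Of 9 genes of peptide trimming, loading and quality control in the endoplasmic reticulum, 3 were higher and 1 lower with HC3 in M[0], and 1 and 2 with RSM. In M[IL-4] the counts were 2 and 2 with HC3 and 3 and 3 with RSM. *Calr*, the chaperone of the peptide-loading complex, fell in all 4 comparisons. Its level was 1079 ± 55.6 CPM in Veh M[0], 726 ± 36.1 with HC3 and 544 ± 26.3 with RSM, and in M[IL-4] 1469 ± 56.1, 824 ± 20.8 and 656 ± 23.2 CPM, or -1.16 ± 0.06 on the log2 scale for RSM there (edgeR FDR 2.63e-11). *Pdia3*, the disulfide isomerase of that complex, was lower in 3 comparisons, with -0.57 ± 0.10 for RSM in M[IL-4] (edgeR FDR 0.000125) and a value of -0.22 ± 0.10 for HC3 in M[0] that missed the threshold (edgeR FDR 0.0781). *Tapbpl*, a relative of tapasin that edits peptides, was higher in 3, with 0.61 ± 0.09 for HC3 in M[IL-4] (edgeR FDR 1.29e-05), as was *Ganab*, a glucosidase of glycoprotein folding, with 0.29 ± 0.05 for RSM in M[0] (edgeR FDR 0.000218). M[IL-4] against M[0] gave 8 higher and 0 lower with Veh, 4 and 0 with HC3, and 5 and 0 with RSM, with list medians of 0.36, 0.17 and 0.16 on the log2 scale.

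Of 26 other class I and class I-like chains, 14 could be tested. In M[0], 4 were higher and 5 lower with HC3 and 4 and 6 with RSM, and in M[IL-4] 4 and 3 with HC3 and 7 and 4 with RSM. Among those that rose in all 4 comparisons was *H2-Q4*, a non-classical chain of the Q region, whose mean was 31.5 ± 2.11 CPM in Veh M[0] against 48.0 ± 2.14 with HC3 and 46.2 ± 4.56 with RSM. In M[IL-4] its mean was 30.1 ± 4.93 CPM with Veh, 66.8 ± 2.49 with HC3 and 75.2 ± 6.57 with RSM. *H2-Q7*, which encodes Qa-2, went from 2.36 ± 0.450 to 5.23 ± 0.156 and 4.11 ± 0.824 CPM in M[0] and from 2.30 ± 0.638 to 9.16 ± 1.95 and 10.9 ± 1.95 CPM in M[IL-4], where the log2 fold change with RSM was 2.24 ± 0.23 (edgeR FDR 1.97e-07). *H2-Q5* rose in all 4 as well (1.24 to 1.81). Of the stretches of 100 bases of these genes, 14.1% (*H2-Q4*), 12.0% (*H2-Q7*) and 14.0% (*H2-Q5*) also occur in other genes. Reads from such stretches may be lost at the mapping-quality step, and the effect on these counts was not tested. *Fcgrt*, the neonatal Fc receptor, which also binds β2-microglobulin, fell in all 4, from 107 ± 9.29 CPM in Veh M[0] to 40.5 ± 2.31 with HC3 and 37.9 ± 1.32 with RSM. *Hfe* of the same list was lower in all 4 as well, with log2 fold changes of -1.59 to -0.25. Between M[IL-4] and M[0], the 14 chains counted 1 higher and 3 lower with Veh, 3 and 0 with HC3, and 8 and 1 with RSM, with list medians of -0.05, 0.37 and 0.59 on the log2 scale.

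**Figure D5:**
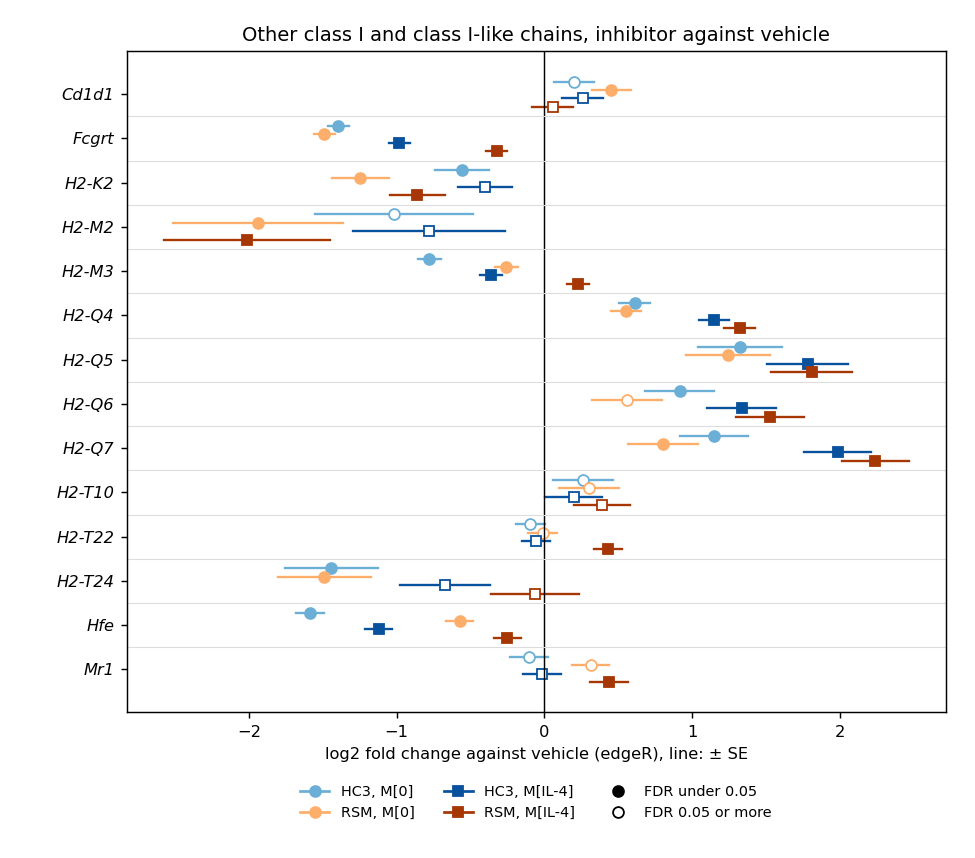
Log2 fold change against vehicle of the 14 other class I and class I-like chains that could be tested, with ± SE from edgeR as a line and filled symbols for an FDR under 0.05. *H2-Q4*, *H2-Q5* and *H2-Q7* are filled and right of 0 in all 4 comparisons, and *Fcgrt* and *Hfe* are filled and left of 0 in all 4. *H2-K2* lies left of 0 in all 4, with an open symbol for HC3 in M[IL-4].

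Of 24 tested transcription factors and interferon signalling genes that act on class I genes, 1 was higher and 14 lower with HC3 in M[0], and 1 and 16 with RSM. In M[IL-4], 2 were higher and 12 lower with HC3, and 6 and 5 with RSM. The list medians of the log2 fold change were -0.51, -0.43, -0.24 and 0.06 in that order. *Irf1*, a factor that binds the ISRE, fell from 48.1 ± 5.02 CPM in Veh M[0] to 24.2 ± 1.06 with HC3 and 24.6 ± 0.867 with RSM, and from 80.9 ± 3.49 CPM in Veh M[IL-4] to 59.3 ± 4.51 and 51.8 ± 8.64. *Irf2*, *Irf8* and *Ifngr2*, a chain of the interferon-γ receptor, were also lower in all 4 comparisons, with log2 fold changes of -0.96 to -0.38, -0.54 to -0.28 and -0.61 to -0.21. Of 15 tested interferon-stimulated genes, 11 were lower with HC3 and 8 with RSM in M[0], with medians of -1.59 and -1.15. In M[IL-4], 1 was lower with HC3, and with RSM 5 were higher and 2 lower, with medians of -0.41 and 0.74. *Gbp3*, an interferon-induced GTPase, was lower in all 4 (-2.05 to -1.41), opposite to the list median with RSM in M[IL-4]. For IL-4, the 24 factors and signalling genes counted 6 higher and 8 lower with Veh, 6 and 1 with HC3, and 11 and 1 with RSM, with list medians of -0.05, 0.05 and 0.29 on the log2 scale. The 15 interferon-stimulated genes counted, in the same comparison, 1 higher and 6 lower with Veh, 0 and 0 with HC3, and 4 and 0 with RSM, with list medians of -1.10, -0.05 and 0.71 on the log2 scale.

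All 8 class II genes tested were lower with HC3 at both polarizations and with RSM in M[IL-4], and 7 were lower with RSM in M[0]. *Ciita*, the class II counterpart of *Nlrc5*, fell from 9.05 ± 2.13 CPM in Veh M[0] to 1.71 ± 0.420 with HC3 and 1.12 ± 0.261 with RSM, and from 31.0 ± 11.4 CPM in Veh M[IL-4] to 8.35 ± 2.60 and 1.82 ± 1.04. *Nlrc5* was higher in each of these comparisons. *Cd74*, the invariant chain, *H2-Ab1*, a class II chain, and *H2-DMa*, of the class II peptide exchanger, were lower in all 4, with log2 fold changes of -3.19 to -1.26, -3.41 to -0.95 and -2.50 to -1.56. With IL-4 the class II genes counted 7 higher and 0 lower with Veh, 7 and 0 with HC3, and 6 and 0 with RSM, with list medians of 1.48, 1.78 and 1.42 on the log2 scale.

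Over the 18 libraries, the 45 pairs among the 10 genes had Pearson's r of log2 CPM from -0.57 (*Psmb9* with *Nlrc5*) to 0.91 (*Tapbp* with *Psmb9*), with a median of 0.49. These are descriptions over libraries that share the same 6 groups and their depth. Among 12378 genes, the one most like *H2-K1* by this r was *Sh2b2* (0.96), like *H2-D1* *Aup1* (0.95), like *H2-T23* *Dhrs3* (0.98) and like *B2m* *Setdb2* (0.96). The nearest to *Tap1* was *Dennd4c* (0.89), to *Tap2* *Chmp4b* (0.83) and to *Tapbp* *Irf1* (0.98). For *Psmb8* it was *Gnl1* (0.88), for *Psmb9* *Snx8* (0.96) and for *Nlrc5* *Nhlrc3* (0.96). No member was among the 3 nearest of another.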

How the data were processed

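Messenger RNA of the 18 BMDM cultures was sequenced, and the table the authors deposited holds raw read-pair counts per Ensembl gene. Per the methods, reads were cleaned with fastp and mapped with STAR to GRCm38; only pairs of high mapping quality were kept, duplicates were marked with Picard but not removed, and featureCounts assigned pairs to exons. Reads that match several genes are lost at the mapping-quality step, which lowers the counts of near-identical genes. The annotation release and strand setting are not given in the sources used here. Symbols, positions and exons came from the GENCODE annotation of GRCm38 (55144 of 55385 genes matched). Depth was 17457796 to 19522255 counts per library.

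Genes reaching 10 counts in 2 or more libraries were kept (14979). All libraries, grouped by label, entered 1 quasi-likelihood fit in edgeR 4.0.16 (R 4.3.3, TMM, a coefficient per group, no block), and 11 comparisons were tested with Benjamini-Hochberg adjustment over the genes kept. SE and 95% intervals come from this fit. Log2 CPM used a prior count of 2. Alternatives were a replicate block over all libraries or within each polarization, only the groups compared, DESeq2 1.42.0, no count filter, filterByExpr, library-size scaling, DESeq2 size factors, and leaving out each replicate number. The labels do not say what a replicate number marks. Deviations from the group means correlated at 0.110 to 0.372 between same-numbered libraries of a polarization, over 0.1 in all 18 pairs. The numbers were therefore taken as a block within a polarization, but only in an alternative fit. The SE, intervals and FDR of the main fit leave this pairing out. Across polarizations 12 of 27 pairs were over 0.1. Chi-square per gene between replicates was 5.97 to 18.9, beyond counting error, so no library was a copy of another. The steps were tested on simulated counts.

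The 10 genes and the lists were chosen with earlier results of these data known. From the lists, genes were named that passed in the same direction in at least 3 of the 4 inhibitor comparisons, at most 4 per list by the lowest largest FDR. *Hfe*, *H2-K2*, *H2-T24* and *H2-M3* were named beyond that rule. For likeness the 3 genes with the highest r were taken among those with a mean of at least 1 CPM. Stretches of 100 bases were compared over all annotated transcripts, and figures were drawn with matplotlib 3.10.9.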

Additional observations from a re-analysis of the deposited data

Results flagged for a closer look

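The effect of RSM against vehicle differed between M[IL-4] and M[0] for 2 of the 10 genes, by the test of the difference itself, where 5.05% of all tested genes passed as higher in M[IL-4] and 4.14% as lower. For *H2-K1* the log2 fold change was higher in M[IL-4] by 0.39 ± 0.10 (SE, edgeR FDR 0.0177), and for *Tap1* by 0.56 ± 0.16 (edgeR FDR 0.0314), with 3 libraries in each of the 4 groups. In M[IL-4], each of the 3 RSM libraries was above each Veh library for both genes, and in M[0] this held for *H2-K1* alone. Both calls were lost without replicate 3, at 0.39, edgeR FDR 0.283, for *H2-K1* and 0.53, edgeR FDR 0.288, for *Tap1*. That of *H2-K1* was also lost without replicate 2 (0.34, edgeR FDR 0.144) and that of *Tap1* without replicate 1 (0.53, edgeR FDR 0.0706). With the replicate block within each polarization, 6 of the 10 genes passed, where 10.5% of all genes were higher and 8.94% lower. In DESeq2 3 passed, with *H2-T23* added (DESeq2 FDR 0.0442), where 5.36% of all genes were higher and 5.45% lower.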

How the results depend on the processing

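Counts of the 10 genes that passed are given here where an alternative moved them by over 1.5 times, with the share of all genes tested that passed in the same fit in brackets against that of the fit reported. With the replicate block within each polarization, they were 5 higher for HC3 in M[IL-4] (24.6% against 18.9%), 3 lower for HC3 in M[IL-4] (24.4% against 19.9%), 2 lower for RSM in M[IL-4] (23.0% against 18.5%), 2 higher for the HC3 difference of differences (8.38% against 3.08%), 6 higher for the RSM difference of differences (10.5% against 5.05%), 2 higher for HC3 against RSM in M[0] (13.7% against 6.18%), 2 lower for HC3 against RSM in M[0] (12.9% against 7.43%) and 3 lower for HC3 against RSM in M[IL-4] (13.5% against 8.03%). With the replicate number as a block over all libraries, they were 2 lower for HC3 in M[IL-4] (21.8% against 19.9%), 4 higher for the RSM difference of differences (7.15% against 5.05%) and 3 lower for HC3 against RSM in M[IL-4] (10.2% against 8.03%). With only the groups compared, they were 2 lower for RSM in M[IL-4] (17.8% against 18.5%) and 0 lower for IL-4 with Veh (13.2% against 14.9%). With no count filter, they were 2 lower for RSM in M[IL-4] (9.55% against 18.5%) and 3 lower for HC3 against RSM in M[IL-4] (4.15% against 8.03%). With scaling by library size only, they were 3 lower for HC3 against RSM in M[IL-4] (8.44% against 8.03%). Leaving out each replicate number in turn gave 1 to 3 higher for HC3 in M[0] (against 3, and 13.9% to 20.0% against 22.6%), 1 to 3 higher for RSM in M[0] (against 3, and 12.5% to 18.4% against 20.5%), 0 to 3 lower for HC3 in M[IL-4] (against 1, and 13.1% to 17.7% against 19.9%), 0 to 1 lower for RSM in M[IL-4] (against 1, and 12.4% to 16.7% against 18.5%), 2 to 6 higher for IL-4 with Veh (against 6, and 8.56% to 13.8% against 16.1%), 0 to 1 lower for IL-4 with Veh (against 1, and 7.23% to 14.4% against 14.9%), 3 to 5 higher for IL-4 with HC3 (against 5, and 3.19% to 6.61% against 7.22%), 4 to 8 higher for IL-4 with RSM (against 8, and 4.37% to 7.03% against 8.79%), 0 to 2 higher for the RSM difference of differences (against 2, and 1.07% to 3.64% against 5.05%), 0 to 1 lower for HC3 against RSM in M[0] (against 1, and 2.74% to 6.04% against 7.43%) and 0 to 2 lower for HC3 against RSM in M[IL-4] (against 1, and 2.57% to 6.26% against 8.03%). Genes that had not passed changed sign with library-size scaling, to 0.048 for *Tap1* (RSM in M[0]), -0.00087 for *Tap1* (IL-4 with Veh) and -0.011 for *Nlrc5* (IL-4 with RSM) on the log2 scale. Over the 3 leave-outs, log2 values of genes that had not passed crossed 0, with ranges of -0.034 to 0.19 for *Tap2* (HC3 in M[0]), -0.065 to 0.023 for *Tap1* (RSM in M[0]), -0.20 to 0.017 for *Psmb8* (RSM in M[0]), -0.013 to 0.15 for *H2-T23* (HC3 in M[IL-4]), -0.0080 to 0.20 for *Tap2* (HC3 in M[IL-4]), -0.084 to 0.091 for *H2-T23* (RSM in M[IL-4]), -0.074 to 0.18 for *H2-D1* (IL-4 with Veh), -0.015 to 0.21 for *Tap2* (IL-4 with Veh), -0.055 to 0.12 for *Nlrc5* (IL-4 with RSM), -0.019 to 0.12 for *B2m* (the HC3 difference of differences), -0.029 to 0.21 for *Psmb9* (the HC3 difference of differences), -0.13 to 0.19 for *Psmb8* (the RSM difference of differences), -0.041 to 0.12 for *Tap2* (HC3 against RSM in M[0]), -0.054 to 0.10 for *Psmb8* (HC3 against RSM in M[0]), -0.045 to 0.036 for *Psmb9* (HC3 against RSM in M[0]), -0.10 to 0.23 for *H2-T23* (HC3 against RSM in M[IL-4]), -0.19 to 0.021 for *Tap2* (HC3 against RSM in M[IL-4]), -0.016 to 0.22 for *Tapbp* (HC3 against RSM in M[IL-4]) and -0.022 to 0.13 for *Nlrc5* (HC3 against RSM in M[IL-4]). No gene that passed changed sign under any alternative run, and the causes of these moves were not tested. Among the values of single genes, 1122 stayed on their side of the threshold or within the spread, 47 came to pass, 41 no longer passed, and 6 mean levels moved by over 1 SD. The block within each polarization could not be fitted for M[IL-4] against M[0], since the polarization is then part of the block; outside the values given here and beside the results, the block changed no count by over 1.5 times. Leaving out a number leaves 2 libraries per group.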
